A study of Phaseolus vulgaris with 18 samples.

Results

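The golden line A18-1 of common bean (Phaseolus vulgaris) bears pods that turn from green to gold while they grow, and the change described here is that of its pod wall between 10 and 14 days after flowering (DAF). It rests on the 6 golden libraries collected at these ages, 3 at each, out of 18 libraries in the series, and every expressed gene was compared between them. After a filter on low counts 22805 of the 25124 genes in the table were tested. The other libraries are the golden line at 18 DAF and the line Renaya, whose pods stay green, at 10, 14 and 18 DAF, again with 3 libraries each. Both lines were grown in a climate chamber, no agent was applied to either, and the age of the pod is the only labelled difference between the golden groups. The design text calls the replicates independent biological repeats. It does not say whether pods of several plants were pooled or at what time of day they were picked. Each line stands for its whole genetic background, so a difference between them cannot be assigned to pod colour.

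A young legume pod first grows as an organ: its wall cells divide, lengthen and lay down cuticle before the seeds inside begin to fill. Lengthening depends on proteins that loosen the primary wall, such as expansins and pectin enzymes, while cutin and waxes made in the epidermis from plastid fatty acids cover the new surface. The pod wall is also a green, photosynthetic tissue, and its colour is set by the balance of chlorophyll, held in antenna proteins, and carotenoids. In fruit that ages or is stressed, NAC, WRKY and ethylene response factors are known to switch on genes of defence and of the recycling of cell contents.

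Libraries of the golden line at 10 and 14 DAF held 55687711 to 74377200 counts. Replicate 3 at 14 DAF stood apart from replicates 1 and 2 of its group and lay between them and the younger pods. Its Pearson correlation across genes, on log2 CPM (counts scaled to library size), was 0.952 to 0.961 with the 10 DAF libraries and 0.941 and 0.959 with replicates 1 and 2 of its own age. On the first principal component of the 6 libraries, which held 51.7% of the variance, the 10 DAF libraries lay at -66.9, -84.7 and -42.3, replicates 1 and 2 at 14 DAF at 108.9 and 83.0, and replicate 3 at 2.04. On the second component of all 18 libraries (18.1% of the variance), replicate 3 lay at -42.4, near replicate 2 at -38.3. Replicate 1 lay there at -20.2 and the 10 DAF libraries at -89.7 to -81.6. Replicate 3 was the lowest of the 14 DAF libraries in 144 of the 157 genes that rose and the highest in 107 of the 139 that fell. Results are therefore also given without it, a choice made after its values were seen.

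The design text names the pod wall, whereas a tissue field of the same libraries says leaf, and an adipose type appears in the extraction protocol. Genes listed for floral and carpel identity were expressed in all 6 libraries: the 20 tested members, mostly MADS-box factors, summed to 968 to 1000 FPKM (sequenced fragments scaled by the authors to transcript length and library size) at 10 DAF and 1060 to 1380 at 14 DAF. Most of them carry only a general family description, so their sum does not settle which tissue was sampled. None of the 20 was called. Seed markers summed to 1890 to 1990 FPKM at 10 DAF and 2090 to 2990 at 14 DAF, mostly from cupin and late embryogenesis genes that other tissues also use. Of the 4 oleosin genes tested, whose proteins coat seed oil bodies, 3 did not exceed 1.76 FPKM in any of the 6. The other, Phvul.008G144500, was at 13.5, 17.8 and 13.2 FPKM at 10 DAF and wholly lower at 14 DAF, at 2.44, 6.17 and 9.997 (log2 -1.27, edgeR adjusted p = 0.19). edgeR called 0 of 42 seed markers. Xylem and fibre markers summed to 214 to 241 FPKM at 10 DAF and 193 to 288 at 14 DAF, with 3 of 35 members at 0 counts in all 6 libraries and none called. This sum hides opposite moves. Its most abundant member, a cellulose synthase family gene (Phvul.005G022100), was at 131, 126 and 98.4 FPKM at 10 DAF and 53.9, 77 and 86.8 at 14 DAF. Of the 35 members 21 had a log2 fold change above 0 and 11 below, with a median of 0.29. Phloem markers summed to 603 to 809 FPKM at 10 DAF and 922 to 963 at 14 DAF, and 1 of 19 was called higher, phloem protein 2-B10 (Phvul.007G116000). In 10 of the 19 the 14 DAF libraries lay wholly above the 10 DAF ones (52.6% beside 14.7% of all genes) and in 1 wholly below. The median log2 fold change of the phloem markers was 0.41. The 14 epidermis and stomata markers summed to 162 to 210 FPKM at 10 DAF and 97.4 to 173 at 14 DAF, led by the wax enzyme 3-ketoacyl-CoA synthase 6 (Phvul.007G027100), with 4 at 0 counts in all 6 libraries and none called. DESeq2, which called 5.06% of all genes tested higher and 3.95% lower, called at most 2 members of any of these 5 marker lists. It called 2 of 19 phloem markers higher, 1 xylem and fibre marker in each direction, 1 seed marker higher and 1 floral and carpel marker lower. The part of these shifts in the results below was not tested, and in whole tissue fewer cells of a type and less RNA per cell cannot be told apart.

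Between 10 and 14 DAF, 296 of the 22805 genes changed in the golden pod wall (1.3%; edgeR quasi-likelihood test, Benjamini-Hochberg adjusted p under 0.05, called below). 157 were higher at 14 DAF (0.688% of genes tested) and 139 lower (0.61%), of which 135 and 108 differed by at least 2-fold. The shares of 0.688% and 0.61% are the background for each edgeR count of list members below. In all 296 the 3 libraries of one age lay above the 3 of the other. Across all genes tested, 14 DAF lay wholly above 10 DAF in 14.7% and wholly below in 13.5%, and the median log2 fold change was 0. An unadjusted p under 0.05 was reached by 19.5% of genes. 48 called genes had no description and 35 stayed under 5 FPKM at both ages. Of the genes that rose, 4 had no count at 10 DAF, and of those that fell, 6 had none at 14 DAF.

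**Figure D1:**
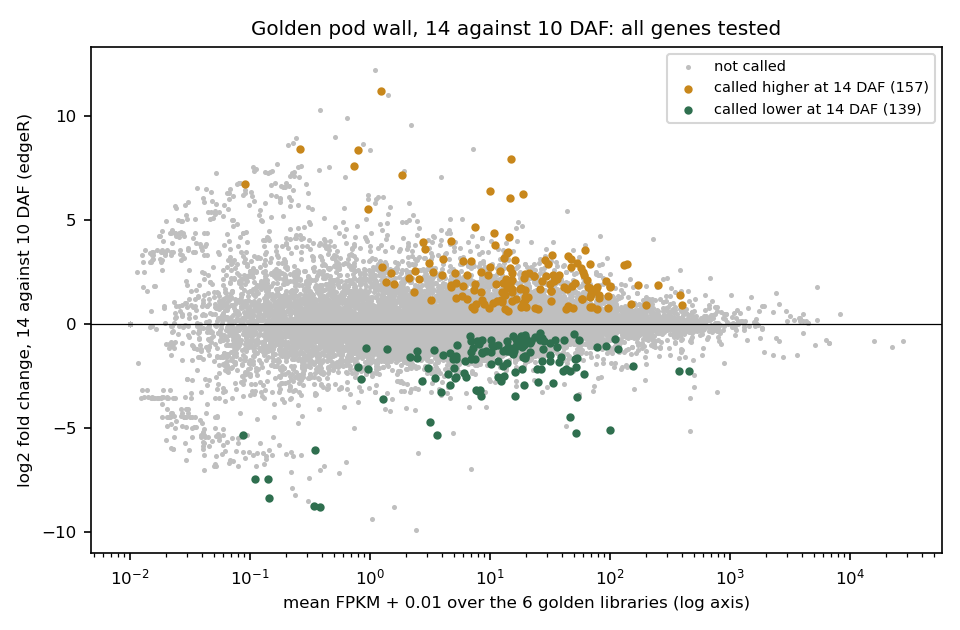
Log2 fold change of each tested gene between 14 and 10 DAF in the golden pod wall (vertical axis, edgeR) against its mean FPKM over the 6 libraries plus 0.01 (horizontal log axis). The 157 genes called higher and the 139 called lower are coloured, and the genes of highest abundance were not called.

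Without replicate 3 at 14 DAF, 1896 genes were called (8.31%), 845 higher (3.71%) and 1051 lower (4.61%), and these held 295 of the 296. The shares of 3.71% and 4.61% are the background for list counts without replicate 3. As that library lay between the ages, leaving it out widens the gap. The counts without it, here and below, are therefore no separate support for a change. Omitting any other single library took the number to between 9 and 73, and the numbers for each library are given in the closing section. Of the 296 genes, 220 stayed called in 1 of the 6 omissions and 8 in all 6, and the adjusted p of a called gene never rose above 0.217.

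The 8 genes called whichever library was left out, a set picked after their values were seen, comprised 6 that rose and 2 that fell. Of those that rose, 4 are described as a receptor, kinases or a phosphatase. A protein phosphatase 2C gene (Phvul.003G118900), of a family that removes phosphate from serine and threonine in stress and hormone signalling, stood at 15.6, 23.1 and 15.6 FPKM at 10 DAF and 120.1, 97.9 and 87.7 at 14 DAF. All 14 DAF values were well above the highest 10 DAF value, a 5.58-fold rise (log2 fold change 2.48, SE 0.30, adjusted p = 0.0033). Protein kinase genes Phvul.002G229000 and Phvul.001G048600 rose with it. The first was at 6.84, 5.73 and 6.496 FPKM at 10 DAF and 22.9, 25.2 and 16.3 at 14 DAF (log2 1.74, adjusted p = 0.00286), and the second went from 0.285, 0.337 and 0.355 FPKM to 4.38, 9.33 and 1.96 (log2 3.96, adjusted p = 0.0035). Receptor like protein 24 (Phvul.008G276100) had no count at 10 DAF and lay between 0.187 and 0.728 FPKM at 14 DAF, a low level. A DUF668 protein (Phvul.001G004900) and an undescribed gene (Phvul.001G059600) also rose, the latter from at most 0.427 FPKM to at least 15.1. The genes that fell were a DUF1645 protein (Phvul.001G225700), at 20.4, 19.8 and 17.9 FPKM at 10 DAF and 9.898, 8.29 and 8.16 at 14 DAF, and MSTRG.17083, an assembled locus with no gene name, at 76.9, 53.2 and 46.7 FPKM at 10 DAF and 6.92, 6.102 and 11.8 at 14 DAF.

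The wall-loosening genes that changed were expansins, and they fell. Expansin A8 (Phvul.006G077200), which lets wall polymers slip past each other as cells lengthen, stood at 74.1, 175 and 55.5 FPKM at 10 DAF and 2.77, 1.11 and 4.22 at 14 DAF. The groups did not come near each other, and the fall was 37.8-fold (log2 fold change -5.24, SE 0.96, adjusted p = 0.0264; log2 -5.73 without replicate 3 at 14 DAF). Expansin A15 (Phvul.004G030500) started higher, at 264, 279 and 207 FPKM at 10 DAF and 60.7, 28.1 and 98.6 at 14 DAF, and fell 4.03-fold (log2 fold change -2.01, SE 0.38, adjusted p = 0.0298). Its highest 14 DAF value, in replicate 3, was less than the lowest 10 DAF value. Of 43 tested wall-loosening genes (expansins, xyloglucan enzymes and the like), 0 were called higher and 2 lower, with a median log2 fold change of -0.47 beside 0 over all genes tested, and 32 had a value below 0. Without replicate 3 at 14 DAF, 2 of the 43 were called higher and 12 lower (beside 3.71% and 4.61% of all genes).

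Genes of pectin were called only lower. A pectin methylesterase inhibitor (Phvul.009G224200), a protein of the family that blocks the trimming of methyl groups from pectin, was at 39.1, 41.3 and 20.6 FPKM at 10 DAF and 3.32, 2.55 and 7.501 at 14 DAF, a 7.58-fold fall (log2 fold change -2.92, SE 0.43, adjusted p = 0.012). A pectate lyase (Phvul.001G256900), an enzyme that cuts demethylated pectin, went from 68.8, 95.6 and 91.6 FPKM to 9.73, 11.3 and 39.2 (log2 -2.09, adjusted p = 0.0477). Here replicate 3 was well above its group mates yet still under every 10 DAF library. Pectin lyase-like genes Phvul.006G028800 and Phvul.007G009300 fell less, by 1.40 and 0.64 on the log2 scale. Of 110 pectin genes, 0 were higher and 5 lower (median -0.48), and in 39 the 14 DAF libraries lay wholly under the 10 DAF ones, 35.5% beside 13.5% of all genes. Without replicate 3 the calls were 0 higher and 27 lower.

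Other called genes with wall-linked descriptions changed in both directions. Several of them, with both that rose, were chosen after their values were seen. A gene described as a putative cell wall protein precursor (Phvul.011G113200) ran at 359, 179 and 42.8 FPKM at 10 DAF and 5.83, 2.298 and 9.14 at 14 DAF (log2 -5.08, adjusted p = 0.0474). The 10 DAF libraries themselves spread widely, and the 14 DAF values still lay below all of them. Trichome birefringence-like proteins are a family that acetylates wall polysaccharides in Arabidopsis. In their list, written after values were seen, 3 of 44 members were lower and 0 higher (median -0.26). TRICHOME BIREFRINGENCE-LIKE 42 (Phvul.005G077200) showed the largest of these changes, at 14.4, 20.98 and 9.74 FPKM at 10 DAF and 0.418, 1.25 and 3.29 at 14 DAF (log2 -3.18, adjusted p = 0.0195). Arabinogalactan protein 20 (Phvul.006G110400), a small cell surface glycoprotein, fell from 102 ± 34.5 to 19.2 ± 13.5 FPKM (SD, n = 3), and SKU5 similar 5 (Phvul.011G102500), of a copper oxidase-like wall family, from 59.4 ± 7.54 to 19.6 ± 3.79. A DUF642 protein (Phvul.005G174500), of a wall-bound family, fell 11.4-fold, from 98.5 ± 38.7 to 8.66 ± 6.43 FPKM. A BURP domain protein (Phvul.009G180600), of a plant family of secreted proteins, was at 7.15, 7.47 and 6.41 FPKM at 10 DAF and 0.0409, 0.102 and 0.381 at 14 DAF (log2 -5.33, adjusted p = 0.0395). Germin 3 (Phvul.009G227800), of a family of small glycoproteins in the wall space, went from 8.95, 6.203 and 3.06 FPKM to 0, 0.0734 and 0.621 (log2 -4.72, adjusted p = 0.0447). Both were separate by a wide margin. Walls Are Thin 1 (Phvul.002G166900), a protein of fibre wall formation in Arabidopsis, rose from 0.537 ± 0.181 to 2.18 ± 0.486 FPKM (3.99-fold, edgeR adjusted p = 0.0451). Wall associated kinase 5 (Phvul.001G130800), of a receptor family that binds pectin, rose from 0.687 ± 0.38 to 4.04 ± 0.872 FPKM (log2 2.53, adjusted p = 0.0451). Each was called in 1 of the 6 fits that left out a library. Among 93 secondary wall genes edgeR called 0 in either direction, DESeq2 called 4 higher and 7 lower (beside 5.06% and 3.95% of all genes), and the median was 0. Without replicate 3 at 14 DAF, 2 of these were higher and 13 lower (beside 3.71% and 4.61% of all genes).

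Of the 44 lists, cuticle and wax held the most genes called lower by number, at 8 of 116 beside 0.61% of all genes. Microtubule proteins (7 of 82) and the fatty acid synthesis genes of KEGG (4 of 53) held larger shares, but both of these lists were written after values were seen. The GDSL lipase Phvul.006G107300, of the family that includes the enzymes joining cutin monomers, stood at 118, 112 and 36.8 FPKM at 10 DAF and 3.41, 1.87 and 6.84 at 14 DAF, a 22.1-fold fall (log2 fold change -4.47, SE 0.88, adjusted p = 0.0335). The highest 14 DAF library stayed far under the lowest 10 DAF one. Cytochrome P450 CYP77A4 (Phvul.007G104800), of a family that oxidises fatty acids for cutin, was at 67.98, 79.6 and 65.7 FPKM at 10 DAF and 18.6, 10.7 and 18.3 at 14 DAF (log2 -2.18, adjusted p = 0.0395). In this gene replicates 1 and 3 at 14 DAF had nearly the same level. 3-ketoacyl-CoA synthase 12 (Phvul.011G068900), an enzyme that lengthens fatty acids for wax, fell from 8.76 ± 2.22 to 1.44 ± 1.198 FPKM (log2 -2.62, adjusted p = 0.0459). Of 116 cuticle and wax genes, 0 were higher and 8 lower, the median was -0.59, and in 44 the 14 DAF libraries lay wholly under the 10 DAF ones (37.9% beside 13.5%). The median level of the list, in log2 relative to the 10 DAF mean, was -0.56, -0.71 and -0.64 in the 14 DAF libraries, so replicate 3 did not stand apart here. Without it the calls were 0 higher and 20 lower, fewer falls than in the receptor kinase, pectin and microtubule lists.

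Genes of fatty acid supply were lower at 14 DAF where they were called. The thioesterase FATB (Phvul.009G200200), which releases saturated fatty acids from the plastid carrier protein, was at 43.5, 53.5 and 24.9 FPKM at 10 DAF and 10.4, 7.09 and 10 at 14 DAF (log2 fold change -2.16, SE 0.32, adjusted p = 0.012). Biotin carboxyl carrier protein 2 (Phvul.004G034300), a subunit of the acetyl-CoA carboxylase that begins fatty acid synthesis, fell by 2.14-fold to 10.1, 12.2 and 13.6 FPKM (log2 -1.10, adjusted p = 0.0195). A Rossmann-fold protein that KEGG places in the same pathway (Phvul.006G092800) was at 4.14, 31.3 and 5.58 FPKM at 10 DAF and 1.12, 1.599 and 1.803 at 14 DAF (log2 -3.18, adjusted p = 0.0335). Of 53 genes that KEGG places in fatty acid synthesis, 4 were lower and 0 higher (median -0.38), and without replicate 3 at 14 DAF 13 were lower. In KEGG's cutin, suberine and wax pathway 3 of 58 fell and 0 rose, around a median of -0.07. Both KEGG lists were written after values were seen. An acyl-CoA reductase (Phvul.005G125400), of the family that makes fatty alcohols, fell from 21.8 ± 6.89 to 5.89 ± 2.003 FPKM. HMG-CoA synthase is an early enzyme of the mevalonate route to sterols, and the genes called for it, Phvul.004G123000 and Phvul.002G153600, fell. Phvul.004G123000 was at 35.95, 42.5 and 37.8 FPKM at 10 DAF and 15.4, 14.6 and 20.4 at 14 DAF (log2 -1.22, adjusted p = 0.00874).

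Most microtubule and cell division genes had values below 0, and few passed the test. The microtubule list was written after values were seen. Of 82 microtubule genes, 7 were called lower and 0 higher, the median was -0.60, 76 values lay below 0, and 43 genes were wholly separate at the lower level (52.4% beside 13.5%). A microtubule motor protein (Phvul.002G111200) showed the largest called change among the 7, at 32.1, 33.3 and 23.9 FPKM at 10 DAF and 6.82, 7.91 and 13.7 at 14 DAF (log2 -1.66, adjusted p = 0.0195). MAP65-1 (Phvul.006G048500), which bundles microtubules, fell by 0.75 on the log2 scale, from 43.5 ± 5.02 to 26.2 ± 4.18 FPKM. Of 76 cell division genes, 3 kinesins were called lower and 0 genes higher (median -0.73), with 67 values below 0 and 41 genes wholly separate downwards. These 3 kinesins are also among the 7 microtubule genes called, so the lists overlap. The kinesin ZWICHEL homologue Phvul.003G279200, known in Arabidopsis for shaping leaf hairs, was at 22.6, 19.01 and 17.2 FPKM at 10 DAF and 6.104, 5.47 and 12.2 at 14 DAF (log2 -1.31, adjusted p = 0.0342). The named cyclins and mitotic kinase were not called. The kinase CDKB2;2 (Phvul.001G000500), which drives entry into mitosis, stood at 17.99, 15.2 and 9.17 FPKM at 10 DAF and 4.35, 2.66 and 6.47 at 14 DAF (log2 -1.66, adjusted p = 0.201), and Cyclin B2;3 (Phvul.002G115100) at 5.803 ± 1.12 and 2.499 ± 1.57 FPKM. CYCLIN A3;4 (Phvul.001G025700) was at 9.15 ± 0.67 and 8.73 ± 1.28 FPKM and CYCLIN D1;1 (Phvul.002G074800) at 48.9 ± 0.699 and 55.2 ± 2.98. The 35 histone genes had a median of -0.62 and the 52 DNA replication genes one of -0.40, with 0 called in either list by edgeR. DESeq2 called 1 histone gene in each direction and 2 replication genes lower. The median of the cell division list, in log2 relative to the 10 DAF mean, was -0.93, -0.82 and -0.33 in the 14 DAF libraries, so replicate 3 lay between the ages. Without it 16 cell division and 22 microtubule genes were called lower and 0 higher.

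**Figure D2:**
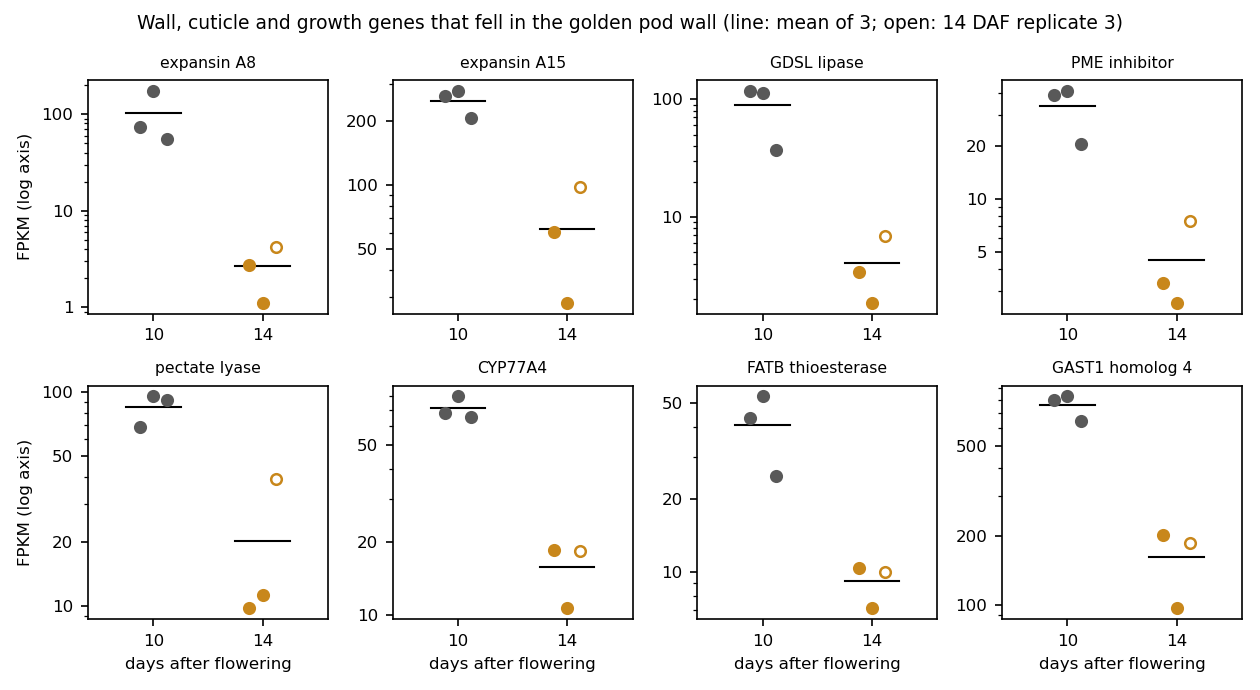
FPKM (log axis) in each golden library at 10 and 14 DAF for 8 called genes of wall loosening, pectin, cuticle, fatty acid supply and growth. Short lines are means of 3 libraries, the open circle is replicate 3 at 14 DAF, and in each panel all 14 DAF points lie under all 10 DAF points.

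Single genes tied to growth hormones and to water and inositol supply also fell. GAST1 protein homolog 4 (Phvul.009G187400), of a family of small peptides induced by gibberellin, was among the most abundant genes called, at 799, 829 and 647 FPKM at 10 DAF and 202, 96.3 and 187 at 14 DAF (log2 -2.24, adjusted p = 0.0342). Myo-inositol-1-phosphate synthase 2 (Phvul.001G251000), the committed enzyme of inositol synthesis, was at 710.2, 714 and 461 FPKM at 10 DAF and 108, 93.3 and 199.5 at 14 DAF (log2 -2.25, adjusted p = 0.0195). Both kept a wide gap between the ages. The SAUR gene Phvul.011G037900, of a family induced by auxin in lengthening tissue, fell 6.91-fold from 44.05 ± 7.23 to 6.401 ± 5.09 FPKM. Auxin response factor 4 (Phvul.005G136900) fell by 1.26 on the log2 scale and auxin response factor 9 (Phvul.010G011600) rose by 0.82. These 3 were the auxin genes called among 161, beside 1.3% of all genes, and the list's median was -0.03. Delta tonoplast intrinsic protein (Phvul.010G147100), a water channel of the vacuole, was at 60.9, 134 and 34.7 FPKM at 10 DAF and 12.1, 16.7 and 20.1 at 14 DAF (log2 -2.24, adjusted p = 0.0395), and NOD26-like intrinsic protein 1;2 (Phvul.006G171000) fell from 42.3 ± 5.57 to 12.6 ± 2.37 FPKM. The other 30 of 32 aquaporins were not called.

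Among the genes that rose most were a defensin-type protein and enzymes that modify small molecules. Low-molecular-weight cysteine-rich 68 (Phvul.005G071400), a small secreted protein of the defensin type, went from at most 0.187 FPKM at 10 DAF to 74.5, 12.8 and 2.14 at 14 DAF (log2 fold change 7.93, SE 1.34, adjusted p = 0.0195). The ages were separate, but the 14 DAF libraries differed among themselves over a wide range. Glutathione S-transferase TAU 22 (Phvul.005G053100), of a family that attaches glutathione to toxic compounds, stood at 0.527, 0.236 and 0.637 FPKM at 10 DAF and 46.6, 53 and 11.9 at 14 DAF (log2 6.25, adjusted p = 0.0395). UDP-glucosyl transferase 85A2 (Phvul.006G017400), of the enzymes that add glucose to small molecules, was highest in replicate 3, at 0.249, 0.414 and 1.01 FPKM at 10 DAF and 3.27, 11.1 and 29.3 at 14 DAF (log2 4.67, adjusted p = 0.0395). Its log2 fold change without that library was 3.62. UDP-glucosyl transferase 74B1 (Phvul.002G075200) rose from 1.47 ± 0.776 to 27.6 ± 18.6 FPKM. A glycosyl hydrolase (Phvul.009G256400) was at 0.496, 0.541 and 0.238 FPKM at 10 DAF and 71.3, 1.29 and 15 at 14 DAF (log2 6.04, adjusted p = 0.0395), and a cytochrome P450 of family CYP93D (Phvul.007G257500) went from 1.46 ± 0.147 to 20.7 ± 8.47 FPKM. A RING/U-box protein (Phvul.009G261400), of a class with many ubiquitin ligases, rose from 2.31 ± 1.13 to 25.8 ± 17.3 FPKM, and poly(A) polymerase 1 (Phvul.002G325900), which adds poly(A) tails to RNA, from 2.36 ± 0.836 to 25.3 ± 17.6. Nicotinamidase 1 (Phvul.002G213300), which recycles nicotinamide for NAD synthesis, was at 7.91, 8.28 and 12.2 FPKM at 10 DAF and 229, 85.6 and 31.7 at 14 DAF (log2 3.57, adjusted p = 0.0342). Replicate 3 held the lowest of the 14 DAF values and was still far above every younger library.

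Calcium and receptor signalling genes were called mostly higher. Both lists were written after values were seen, so their shares are no separate support for a change. Calmodulin 5 (Phvul.004G076400), a calcium sensor, was at 235, 179 and 222 FPKM at 10 DAF and 574, 668 and 448 at 14 DAF, a 2.62-fold rise (log2 fold change 1.39, SE 0.23, adjusted p = 0.0195). Calcium-dependent protein kinase 16 (Phvul.002G108700) was at 21.3, 14.3 and 20.3 FPKM at 10 DAF and 55.2, 104 and 36.1 at 14 DAF (log2 1.78, adjusted p = 0.0319), and the EF-hand protein Phvul.002G019300 went from 13.1 ± 1.55 to 59.8 ± 25.5 FPKM. In each the lowest 14 DAF value was that of replicate 3. Of 143 calcium signalling genes 6 were called higher and 0 lower, with a median of 0.19. Among 490 receptor kinases 13 were higher and 3 lower (median 0.32), where 0.688% of all genes were higher and 0.61% lower. A homologue of BRI1-associated receptor kinase (Phvul.002G207000), a partner of several surface receptors in Arabidopsis, stood at 3.99, 3.54 and 6.54 FPKM at 10 DAF and 29.5, 37.4 and 10.3 at 14 DAF (log2 2.43, adjusted p = 0.022). The S-locus lectin kinase Phvul.011G109100 went from 4.101, 3.13 and 3.29 FPKM to 24.1, 27.4 and 10.2. Without replicate 3, 16 calcium genes were higher and 5 lower, and 45 receptor kinases were higher and 28 lower. Over all genes 3.71% were then higher and 4.61% lower. Receptor kinases exceeded these shares in both directions, calcium genes only upwards. Disease resistance genes had 2 of 422 members higher and 1 lower (median 0.27), not above the shares of all genes (0.688% and 0.61%). The gene that fell, Phvul.005G032700, is described as dirigent-like, a family that steers lignan formation.

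Few NAC and WRKY factors were called, and both that were had risen. The NAC gene Phvul.009G125900 was at 46.97, 30.7 and 30.98 FPKM at 10 DAF and 162, 113 and 77.7 at 14 DAF (log2 fold change 1.68, SE 0.28, adjusted p = 0.0195), and the NAC gene Phvul.001G072200 went from 16.02 ± 2.76 to 48.2 ± 23.2 FPKM (log2 1.57, adjusted p = 0.0335). These were the 2 called among 152 NAC and WRKY factors, with 0 lower. The list's median was 0.64, and in 51 of the 152 the 14 DAF libraries lay wholly above the 10 DAF ones (33.6% beside 14.7%). Relative to the 10 DAF mean the list's median, in log2, lay at 0.95, 0.72 and 0.26 in the 14 DAF libraries, lowest in replicate 3, and without that library 22 were higher and 1 lower. The gene described as NAC domain containing protein 2 (Phvul.005G084600) was at 45.5, 39.1 and 51.95 FPKM at 10 DAF and 83.2, 59.1 and 61.9 at 14 DAF and was not called (log2 0.56, adjusted p = 0.333).

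AP2/ERF factors, which include the ethylene response factors, were called in both directions. Their list was written after values were seen. ERF4 (Phvul.005G074700), a factor that represses ethylene targets in Arabidopsis, was at 67.9, 56.8 and 38.3 FPKM at 10 DAF and 163, 120.5 and 129 at 14 DAF (log2 1.32, adjusted p = 0.0335). ERF domain protein 9 (Phvul.006G183100) went from 43.6 ± 15.2 to 157 ± 32.4 FPKM and ERF1 (Phvul.002G055700), an activator of ethylene responses, from 6.24 ± 1.92 to 22.02 ± 8.93. Of 44 ethylene genes 2 were higher and 0 lower (median 0.64), namely ERF1 and ERF4, which the AP2/ERF list also holds. The median of 131 AP2/ERF factors, 0.03, was close to that of all genes. Of these factors 6 were higher and 3 lower, beside 0.688% and 0.61% of all genes. Among those lower was Phvul.010G154900, an integrase-type DNA-binding factor, at 5.703, 9.17 and 6.57 FPKM at 10 DAF and 0.578, 0.445 and 1.18 at 14 DAF (log2 -3.27, adjusted p = 0.0342).

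Heat shock factors had 3 of 24 members higher and 0 lower, with a median of 0.50. Their list and the dehydration list below were written after values were seen. Heat shock factor B2A (Phvul.004G119600), a repressor-type member in Arabidopsis, was at 36.3, 36.2 and 32.1 FPKM at 10 DAF and 96.3, 89.4 and 58.7 at 14 DAF (log2 1.21, adjusted p = 0.0195). Heat shock factor A4A (Phvul.006G171700) rose from 7.24 ± 0.932 to 19.2 ± 5.71 FPKM and heat shock factor 4 (Phvul.002G019100) from 6.18 ± 1.04 to 23.4 ± 11.2. Of 227 genes of the wider heat shock list, which holds these 3, 4 were higher and 1 lower around a median of 0.03. The shares of all genes were 0.688% and 0.61%. A heat shock protein 70 (Phvul.011G065000), a chaperone that binds unfolded proteins, was the other gene that rose, at 24.4, 31.2 and 15.8 FPKM at 10 DAF and 95.8, 148 and 68.9 at 14 DAF (log2 2.11, adjusted p = 0.0442). Dehydration-responsive genes had 3 of 18 members higher and 0 lower (median 0.28). ERD15 (Phvul.001G127900) was the most abundant of them, at 157, 134 and 124 FPKM at 10 DAF and 256, 315 and 212 at 14 DAF (log2 0.90, adjusted p = 0.0492). An ERD family protein (Phvul.006G000300) rose 4.97-fold, from 7.77 ± 1.898 to 39.2 ± 23.2 FPKM, and stayed called in 4 of the 6 omissions. Of 247 MYB and bHLH factors 3 were higher and 1 lower (beside 0.688% and 0.61% of all genes), with a median of 0.18. MYB112 (Phvul.007G211800) rose from 6.04 ± 1.92 to 51.5 ± 19.5 FPKM, MYB116 (Phvul.002G317000) from 3.81 ± 2.38 to 25.6 ± 17.2, and the bHLH gene Phvul.003G058800 from 12.1 ± 1.37 to 29.6 ± 10.8. The bHLH gene Phvul.008G041800 fell 11.1-fold to 1.39 ± 0.849 FPKM.

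Sugar and cytokinin use changed in single genes. Cell wall invertase 4 (Phvul.001G191600), which splits sucrose outside the cell and so feeds sink tissue, was at 0.472, 0.506 and 0.3 FPKM at 10 DAF and 4.25, 6.83 and 4.79 at 14 DAF, a 12.1-fold rise (log2 fold change 3.60, SE 0.60, adjusted p = 0.0195). Replicate 3 lay between its group mates. It was the 1 gene called among 52 of starch and sucrose. Sucrose synthase 4 (Phvul.003G127500), the other main route of sucrose cleavage, was at 305, 349 and 296 FPKM at 10 DAF and 107, 113 and 345 at 14 DAF and was not called (log2 -0.76, adjusted p = 0.332). Replicates 1 and 2 at 14 DAF were far under the 10 DAF libraries, whereas replicate 3 lay among them, and without replicate 3 it was called lower (log2 -1.56, edgeR adjusted p = 0.0158). Over all 16 alternatives its adjusted p ran from 0.0158 to 0.711. Cytokinin oxidase 6 (Phvul.011G014000), which degrades cytokinin, rose from 0.704 ± 0.162 to 5.49 ± 3.72 FPKM (log2 2.93, adjusted p = 0.0195), and response regulator 3 (Phvul.002G076900), which cytokinin induces in Arabidopsis, fell from 6.01 ± 1.08 to 1.003 ± 0.386 (log2 -2.59, adjusted p = 0.0211). In abscisic acid signalling 1 of 26 genes was higher, a type 2C phosphatase (Phvul.008G231200), and 1 lower, the HVA22 family gene Phvul.001G007300. Over all genes tested 0.688% were higher and 0.61% lower.

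**Figure D3:**
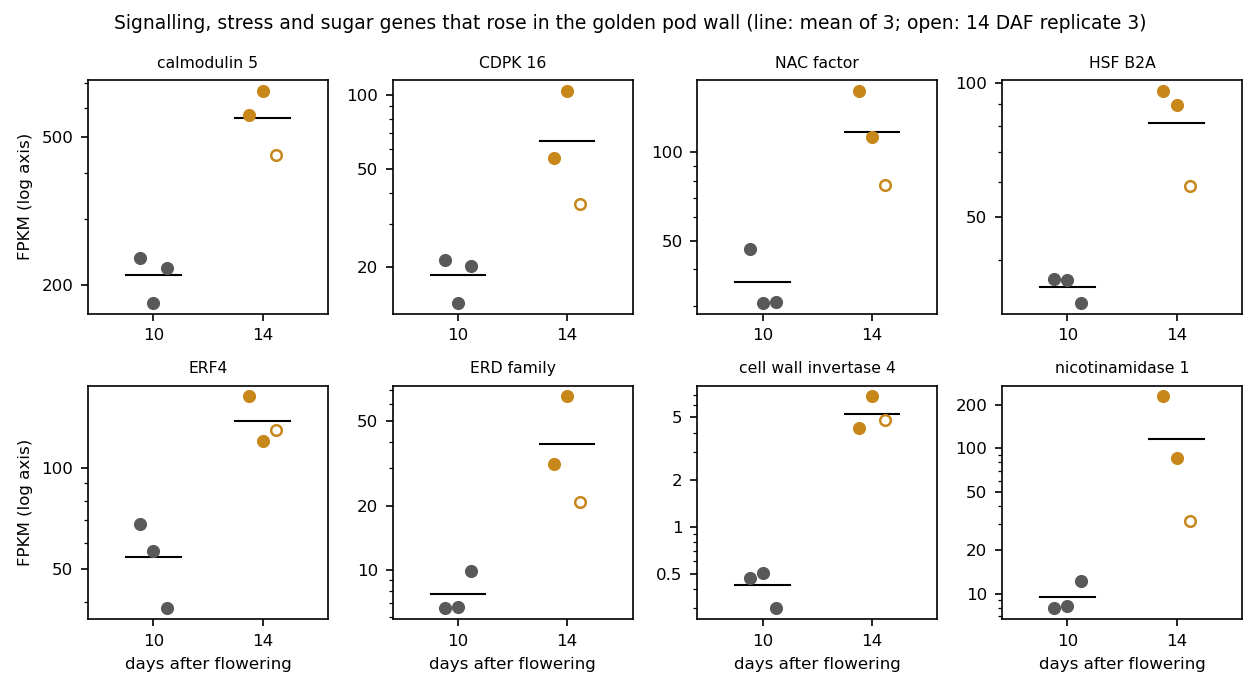
FPKM (log axis) in each golden library at 10 and 14 DAF for 8 called genes of calcium signalling, transcription control, dehydration response and sugar and nicotinamide use. Short lines are means of 3 libraries, the open circle is replicate 3 at 14 DAF, and in each panel all 14 DAF points lie above all 10 DAF points.

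None of the tested photosystem, carbon fixation, chlorophyll or carotenoid genes was called in edgeR. In the list of photosystem and antenna proteins 0 of 88 members passed (median 0.02). The median changed sign in 5 of 16 alternative settings and ranged from -0.099 to 0.12. The antenna gene CAB1 (Phvul.002G196400) was at 4438, 4242 and 4544 FPKM at 10 DAF and 3928, 5038 and 4615 at 14 DAF (log2 0.02, adjusted p = 0.985). At 14 DAF the libraries straddled the 10 DAF range. None of 16 chlorophyll synthesis genes was called (median -0.08). Protochlorophyllide oxidoreductase A (Phvul.005G083700), the light-driven step of the pathway, was at 521, 399 and 477 FPKM at 10 DAF and 291, 368 and 467 at 14 DAF (log2 -0.33, adjusted p = 0.357), and the magnesium chelatase H subunit (Phvul.001G132200), which commits porphyrin to chlorophyll, at 145 ± 25.3 and 140 ± 17.8 FPKM. Glutamyl-tRNA reductase (Phvul.008G185100), which sets the flow into the pathway, was at 93.6 ± 5.099 and 82.4 ± 6.98 FPKM.

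On the side of chlorophyll breakdown 0 of 10 genes were called (median 0.17). NON-YELLOWING 1 (Phvul.002G153100), which takes magnesium out of chlorophyll and starts its loss, was at 74.7, 94.2 and 80.7 FPKM at 10 DAF and 68.5, 84.8 and 109 at 14 DAF (log2 0.06, adjusted p = 0.958), with overlapping groups. The oxygenase acting on pheophorbide a (Phvul.011G086700), the step that breaks open the pigment's ring, was at 37.3 ± 5.37 and 45.6 ± 4.63 FPKM. The phytol-cleaving enzyme pheophytinase (Phvul.011G013400) was at 13.4, 8.69 and 14.2 FPKM at 10 DAF and 15.1, 17.1 and 13.2 at 14 DAF. Chlorophyllase 2 (Phvul.007G278100), which removes the phytol tail, had 14 DAF values wholly above those at 10 DAF, at 35.4, 32.4 and 43.3 FPKM at 10 DAF and 52.7, 62.2 and 46.5 at 14 DAF, without passing the test (log2 0.52, adjusted p = 0.338).

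Carotenoid genes were likewise not called (0 of 25, median 0.21). Phytoene synthase (Phvul.008G241500), the entry enzyme of the pathway, was at 56.4, 59.3 and 66.1 FPKM at 10 DAF and 82.2, 70.96 and 59.9 at 14 DAF (log2 0.21, adjusted p = 0.68). A zeaxanthin epoxidase gene (Phvul.003G243800), on the branch that leads to violaxanthin, stood at 79.7, 60.6 and 94.1 FPKM at 10 DAF and 152, 166 and 86.6 at 14 DAF (log2 0.77, adjusted p = 0.316). Replicates 1 and 2 were well above the 10 DAF range and replicate 3 within it. Carotenoid cleavage dioxygenase 1 (Phvul.011G211200), which cuts carotenoids into volatile products, went from 82.01 ± 14.4 to 144 ± 29.04 FPKM with no overlap (log2 0.79, adjusted p = 0.132). Phytoene desaturase 3 (Phvul.001G264200) was at 26.97 ± 3.15 and 29.1 ± 2.28 FPKM, and a lycopene cyclase (Phvul.008G211500), which closes the ring ends of carotenoids, at 22.1 ± 3.07 and 32.6 ± 7.66. Without replicate 3, 3 of the 25 were called higher, beside 3.71% of all genes. They were another zeaxanthin epoxidase (Phvul.011G214600), nine-cis-epoxycarotenoid dioxygenase 9 (Phvul.005G051600) and beta-hydroxylase 1 (Phvul.007G074200). Carbon fixation had 0 of 13 genes called (median 0.21), and the rubisco small subunit (Phvul.004G073400) was at 5512, 3577 and 5718 FPKM at 10 DAF and 4965, 6613 and 5705 at 14 DAF. Rubisco activase (Phvul.001G234300) was at 308, 233 and 424 FPKM at 10 DAF and 741, 593 and 299 at 14 DAF and phosphoribulokinase (Phvul.002G133100) at 626 ± 105 and 891 ± 157 FPKM. At an unadjusted p under 0.05, 1 of 16 chlorophyll synthesis genes and 5 of 25 carotenoid genes were higher, 1 carotenoid gene was lower, and no photosystem, breakdown or carbon fixation gene passed. Of the 22805 genes tested, 2310 were higher and 2148 lower at that threshold (19.5% in both directions together). DESeq2 and limma on FPKM called 0 genes of the photosystem, chlorophyll and carbon fixation lists, while of the carotenoid genes DESeq2 called 3 higher and limma, at either pseudocount, 1 higher. Over all genes DESeq2 called 5.06% higher and 3.95% lower. Limma called 1.9% higher and 2.03% lower at a pseudocount of 1, and 1.32% and 1.59% at 0.1. In data simulated with the same groups the test recovered 39% of genes changed 2-fold and 68% of those changed 4-fold, picked at random. Genes were drawn independently there and no library lay between the ages, so the rates may differ in the real data. Changes of these sizes could be missed.

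Genes of the clock, of senescence and of fruit identity were not called in edgeR either. Of 17 clock and day length genes 0 passed (median 0.09), with GIGANTEA (Phvul.007G083500), which links the clock to day length, at 92.4, 114 and 107 FPKM at 10 DAF and 118, 117 and 94.4 at 14 DAF. PRR5 (Phvul.009G045000), a clock repressor, was at 61.5 ± 15.8 and 78.9 ± 16.3 FPKM, and FKF1 (Phvul.002G321800), a blue light receptor of day length, at 21.8 ± 1.67 and 23.4 ± 3.56. None of 40 senescence and autophagy genes was called (median 0.22), against 5 higher and 1 lower without replicate 3 at 14 DAF. In that fit 3.71% of all genes were higher and 4.61% lower. The FRUITFULL homologue Phvul.009G203400 (AGAMOUS-like 8), a MADS-box factor of pod wall growth in Arabidopsis, was at 90.8, 105 and 126 FPKM at 10 DAF and 222, 175 and 127 at 14 DAF (log2 0.68, adjusted p = 0.362). Jasmonate (50 genes), flavonoid (28), lignin (36), sugar transport (32) and ribosomal protein genes (341) had 0 calls in either direction, with medians of 0.33, 0.56, 0.08, 0.15 and -0.08. Beside 5.06% of all genes higher and 3.95% lower, DESeq2 called 10 jasmonate genes higher and 2 lower, 1 flavonoid, 1 sugar transport and 1 ribosomal gene higher, 4 senescence genes and 1 clock gene higher, and 0 lignin genes.

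**Figure D4:**
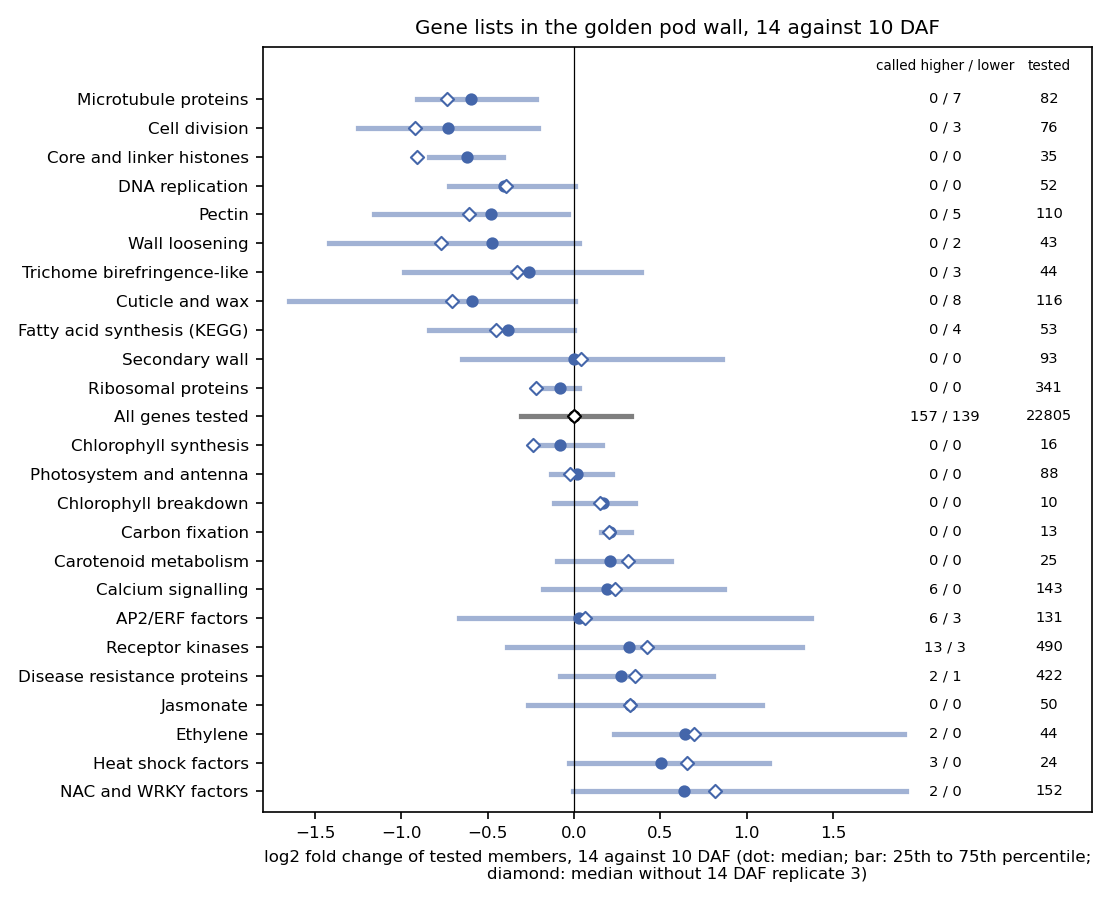
Log2 fold change of the tested members of 24 gene lists and of all genes tested between 14 and 10 DAF in the golden pod wall. Dots are medians, bars run from the 25th to the 75th percentile, and diamonds are medians without replicate 3 at 14 DAF. Microtubule, cell division, histone, pectin and cuticle lists have some of the lowest medians, and NAC and WRKY, ethylene and heat shock factor lists some of the highest. The microtubule, trichome birefringence-like, KEGG, calcium, AP2/ERF, receptor kinase and heat shock factor lists were written after values were seen.

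The green line over the same 4 days shares no library with this comparison and had 1887 genes called (8.27%), 1160 higher and 727 lower. With limma on log2(FPKM + 1) more were lower (1442) than higher (1080). Of the 157 genes that rose in the golden pod wall, 29 also rose in the green one and 1 fell. These 29 are 18.5% of the golden rises, whereas 5.09% of all genes tested rose in the green line. They are 2.5% of the green rises, whereas 0.688% of all genes tested rose in the golden line. Of the 139 golden falls, 17 fell in the green line and 9 rose. The 17 are 12.2% of the golden falls, whereas 3.19% of all genes tested fell in the green line. They are 2.34% of the green falls, whereas 0.61% of all genes tested fell in the golden line. The golden risers had a median log2 fold change of 0.63 in the green line against 1.90 in the golden, and the fallers -0.28 against -1.61. The golden values chose these genes, so the smaller green medians do not show a difference between the lines.

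The difference between the 2 changes was tested gene by gene as a line by age interaction. It was called for 263 genes (1.15%), 79 above 0 and 184 below. Limma on log2(FPKM + 1) gave 318 above and 289 below, so the excess below 0 does not hold in every test. In edgeR 41 of the 296 golden calls were among the 263. 14 of these had risen in the golden pod and 27 had fallen. The GDSL lipase Phvul.006G107300 fell in the golden line as described and in the green line went from 17.2, 9.19 and 8.94 FPKM to 71.2, 33.6 and 64.6 (difference -6.74 on the log2 scale, SE 1.18, adjusted p = 0.0143). The green libraries at 14 DAF were all above those at 10 DAF, the opposite order to the golden line. Expansin A15 (Phvul.004G030500) was at 166 ± 11.7 and 269.5 ± 54.7 FPKM in the green pod (difference -2.72 on the log2 scale, SE 0.53, adjusted p = 0.0243). FATB (Phvul.009G200200) was at 26.2 ± 6.77 and 36.6 ± 2.87 (difference -2.65 on the log2 scale, SE 0.44, adjusted p = 0.0114), and the acyl-CoA reductase Phvul.005G125400 at 3.06 ± 1.58 and 8.48 ± 3.35 (difference -3.36 on the log2 scale, SE 0.60, adjusted p = 0.0155). A fatty acid hydroxylase (Phvul.003G151600), of a family with wax enzymes, fell from 136 ± 9.805 to 83.1 ± 9.08 FPKM in the golden pod and was at 39.6 ± 2.65 and 65.8 ± 4.26 in the green (difference -1.47 on the log2 scale, SE 0.22, adjusted p = 0.00854).

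In the other direction, ERF1 (Phvul.002G055700) rose in the golden pod and was at 18.4, 6.51 and 8.37 FPKM and then 5.14, 6.14 and 7.64 in the green one (difference 2.62 on the log2 scale, SE 0.57, adjusted p = 0.0435). Cytokinin oxidase 6 (Phvul.011G014000) was at 3.61, 4.099 and 4.05 and then 1.68, 1.26 and 2.304 FPKM in the green pod (difference 4.08 on the log2 scale, SE 0.69, adjusted p = 0.0122). TOXICOS EN LEVADURA 2 (Phvul.003G107100), a RING-type ubiquitin ligase, went from 7.69, 3.43 and 6.19 to 26.1, 30.3 and 18.7 FPKM in the golden pod and from 7.13, 6.22 and 7.56 to 3.36, 1.396 and 2.33 in the green (difference 3.62 on the log2 scale, SE 0.65, adjusted p = 0.0158). In these 3 genes the golden libraries at 14 DAF lay wholly above the green ones of the same age. The undescribed gene Phvul.001G059600 went from 0.21 ± 0.214 FPKM at 10 DAF to a mean of 19.8 at 14 DAF in the golden pod. In the green pod it was already at 25.4 ± 4.84 FPKM at 10 DAF. Its change from 10 to 14 DAF differed between the lines by 5.35 on the log2 scale (SE 0.86, interaction adjusted p = 0.00995). Among cuticle and wax genes the interaction was called below 0 for 9 of 116 (beside 0.807% of all genes) and called above 0 for 1 (beside 0.346%). For pectin genes these numbers were 7 and 1 of 110. No photosystem, chlorophyll, carbon fixation or carotenoid gene had a called interaction, while their interaction medians were 0.61, 0.73 (synthesis), 0.31 (breakdown), 0.79 and 0.39.

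Some chlorophyll synthesis genes were called in the green line at this step. 9 of 16 chlorophyll synthesis genes and 4 of 88 photosystem and antenna genes were lower in the green pod at 14 DAF than at 10 DAF, against 0 in the golden pod. Beside 3.19% of all genes called lower in the green line, the photosystem count is near the background. Since none of their interactions passed, the lines were not shown to differ in these genes. For the magnesium chelatase H subunit (Phvul.001G132200) the green libraries went from 88.2, 83.5 and 81.7 to 40.4, 48.1 and 67.01 FPKM (difference 0.64 on the log2 scale, SE 0.37, adjusted p = 0.43).

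**Figure D5:**
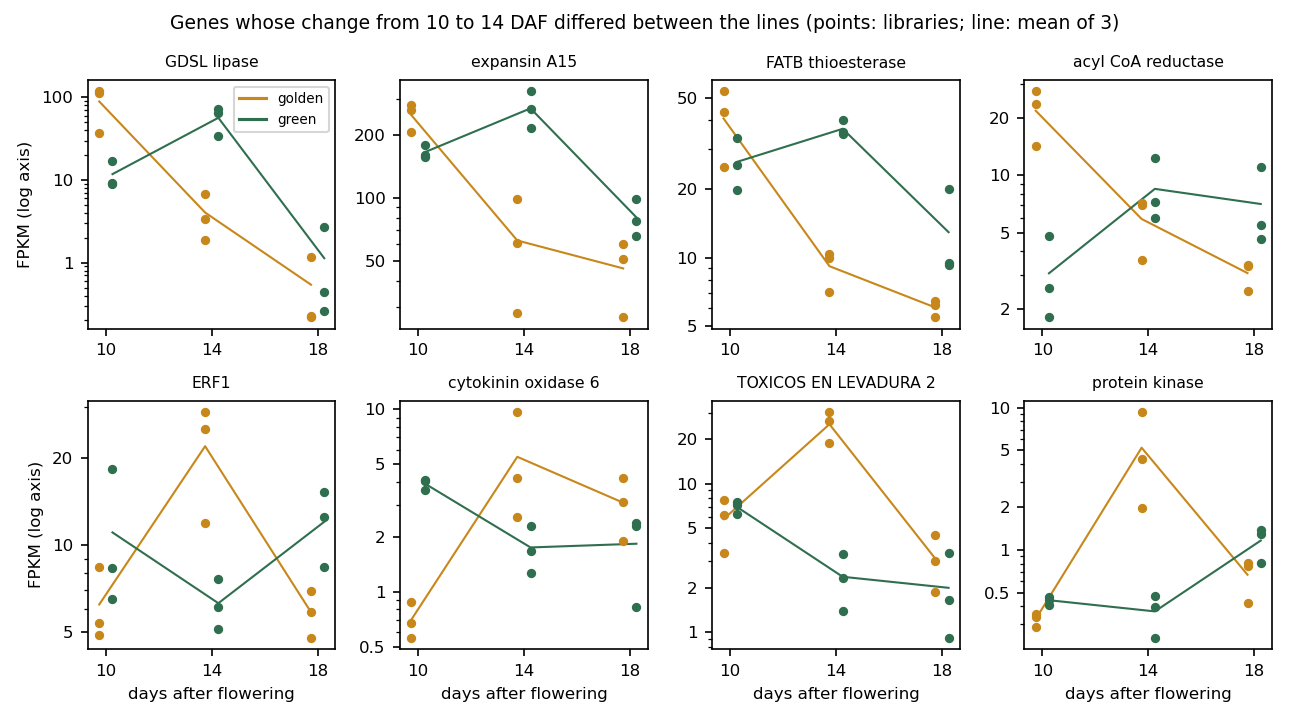
FPKM (log axis) of 8 genes with a called line by age interaction, in every library of the golden and green lines at 10, 14 and 18 DAF. Lines join means of 3 libraries. From 10 to 14 DAF golden values fall in the top row while green means rise, and golden values rise in the bottom row while green means fall.

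The same genes stood at differing levels 4 days later. The golden libraries at 18 DAF share the 14 DAF libraries as their comparison group, so only the values are set side by side. Of all genes tested 5.69% were called higher and 4.95% lower from 14 to 18 DAF. Expansin A8 (Phvul.006G077200) was at 2.702 ± 1.55 FPKM at 14 DAF and 0.713 ± 0.118 at 18 DAF, and CYP77A4 (Phvul.007G104800) at 15.9 ± 4.498 and 4.703 ± 0.236. ERF1 (Phvul.002G055700) was at 5.87 ± 1.08 FPKM, the BRI1-associated kinase homologue Phvul.002G207000 at 4.12 ± 1.46 and TOXICOS EN LEVADURA 2 (Phvul.003G107100) at 3.13 ± 1.32, beside 10 DAF means of 6.24, 4.69 and 5.77. Above their 10 DAF means at 18 DAF were the NAC gene Phvul.009G125900 at 182 ± 45.7, ERF4 (Phvul.005G074700) at 197 ± 64.4 and calmodulin 5 (Phvul.004G076400) at 401 ± 87.6 FPKM.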

How the data were processed

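RNA-seq of pod walls was deposited as 1 table of 25124 rows. Per the file headers it gives each library a count and an FPKM value. The counts deposited by the authors are whole numbers and were treated as estimated counts, raw and not normalized, with no rounding needed. The FPKM values deposited by the authors scale a count by transcript length and library size. Which aligner, counter and genome build were used is not given in the sources used here. The labels report poly(A) selection and an RNA integrity number above 7.0. Strand is not stated and 7933 rows have coordinates, so reads of near-identical copies and antisense genes cannot be told apart. Library totals of the 6 golden libraries compared were 55687711 to 74377200, and rows with no gene name held 2.20 to 3.97% of the counts over the 18 libraries. These 635 rows were kept in the fit and left out in an alternative.

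Counts of all 18 libraries were fitted in edgeR 4.0.16 (R 4.3.3) with 1 mean for each of the 6 groups, TMM scaling and the quasi-likelihood test. The edgeR function filterByExpr removed 2319 rows. P-values are two-sided and Benjamini-Hochberg adjusted over 22805 genes, with 0.05 as the threshold. The common dispersion was 0.155 and each gene had 12 residual degrees of freedom. SE is the log2 fold change divided by the square root of F. Values after ± are SD over 3 libraries. On data simulated for the golden comparison over 22805 genes, the test called 39 of 100 genes changed 2-fold, 68 of 100 changed 4-fold and 0 unchanged genes. Alternatives used limma 3.58.1 on log2(FPKM + 1) and log2(FPKM + 0.1), DESeq2 1.42.0, other scalings, other filters, only the libraries compared, a replicate block and each library left out.

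The comparison and all 44 gene lists were chosen with earlier results of these data known, and 9 lists were written after values were seen (AP2/ERF factors, calcium signalling, receptor kinases, dehydration, heat shock factors, microtubules, trichome birefringence-like proteins and both KEGG lists). Lists are matches to the table's gene descriptions or KEGG terms. Genes were named by rule: the 12 largest rises and 12 largest falls with a description, at least 5 FPKM and no overlap, up to 4 called members per list, key genes of pigment, photosynthesis, division, clock and sugar, and up to 6 called interactions per sign. Phvul.001G130800, Phvul.001G225700, Phvul.001G251000, Phvul.002G153600, Phvul.002G166900, Phvul.002G229000, Phvul.003G118900, Phvul.004G123000, Phvul.005G022100, Phvul.005G051600, Phvul.006G048500, Phvul.006G110400, Phvul.006G183100, Phvul.007G027100, Phvul.007G074200, Phvul.008G144500, Phvul.008G276100, Phvul.011G102500 and Phvul.011G214600 fall outside it and were chosen after their values were seen. No replicate pair matched within sampling noise.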

Additional observations from a re-analysis of the deposited data

Results flagged for a closer look

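Each gene here changed in the golden pod wall between 10 and 14 DAF and differed from the green line in that change, by a called line by age interaction in edgeR. The value given is the golden log2 fold change minus the green one, with its adjusted p, from 3 libraries in each of 4 groups. Higher in the golden change were UDP-glucosyl transferase 74B1 (Phvul.002G075200) by 5.89 (adjusted p = 0.0496), the undescribed Phvul.001G059600 by 5.35 (0.00995), the DUF668 gene Phvul.001G004900 by 4.46 (0.00995), the protein kinase Phvul.001G048600 by 4.23 (0.00854), cytokinin oxidase 6 (Phvul.011G014000) by 4.08 (0.0122), TOXICOS EN LEVADURA 2 (Phvul.003G107100) by 3.62 (0.0158) and ERF1 (Phvul.002G055700) by 2.62 (0.0435).

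Among genes of wall and lipid, the difference was -6.74 for the GDSL lipase Phvul.006G107300 (adjusted p = 0.0143), -3.74 for the Rossmann-fold gene Phvul.006G092800 (0.0468), -3.36 for the acyl-CoA reductase Phvul.005G125400 (0.0156), -2.72 for expansin A15 (Phvul.004G030500) (0.0243) and -2.65 for FATB (Phvul.009G200200) (0.0114). It was -1.98 and -0.837 for the pectin lyase-like genes Phvul.006G028800 (0.0194) and Phvul.007G009300 (0.0419), -1.47 for the fatty acid hydroxylase Phvul.003G151600 (0.00854) and -1.45 for the DUF593 gene Phvul.002G183000 (0.00995). Other negative differences were -4.93 for MSTRG.1393 (0.0122) and -3.52 for MSTRG.17083 (0.00568), both loci with no gene name, -3.02 for the ankyrin repeat gene Phvul.005G046201 (0.00995), -1.74 for the microtubule motor gene Phvul.002G111200 (0.0429) and -1.4 for the HVA22 gene Phvul.001G007300 (0.0122).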

How the results depend on the processing

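The number of golden calls between 10 and 14 DAF (296) stayed within 1.5 times under RLE scaling, upper quartile scaling, both filters and the removal of rows with no gene name, an alternative chosen after seeing the data, at 265 to 438. It became 2054 with DESeq2, 898 and 662 with limma on log2(FPKM + 1) and log2(FPKM + 0.1), and 150 with only the libraries compared. Leaving out one library gave 9 to 1896: 17, 9 and 73 without replicates 1, 2 and 3 at 10 DAF, and 10, 13 and 1896 without replicates 1, 2 and 3 at 14 DAF. The interaction count of 263 became 1230 with DESeq2, 607 and 405 with limma at the larger and smaller pseudocount, 1195 with only the libraries compared, and 71 to 540 with one library left out, the lowest without green replicate 3 at 10 DAF and the highest without golden replicate 3 at 14 DAF. The green count of 1887 became 3428 with DESeq2, 3161 with only the libraries compared and 422 to 2331 with one library left out, lowest without replicate 2 at 14 DAF. The count from 14 to 18 DAF in the golden line, 2426, became 4318, 45 and 673 to 4050 under the same changes, lowest without replicate 2 at 14 DAF and highest without replicate 2 at 18 DAF. The interaction split of 79 above and 184 below 0 became 572 and 658 with DESeq2, 318 and 289 or 181 and 224 with limma, and 591 and 604 with only the libraries compared. The green split of 1160 higher and 727 lower became 1080 and 1442 or 1104 and 1096 with limma, and 1501 and 1660 with only the libraries compared. From 14 to 18 DAF limma called 584 higher and 2324 lower at the larger pseudocount, against 1297 and 1129. The causes were not tested. The labels do not say whether the replicate number marks a shared plant, batch or day. Deviations of same-numbered libraries from their group means correlated at -0.079, -0.092 and -0.21 between golden 10 and 14 DAF. The values were -0.17, -0.16 and 0.078 between green 10 and 14 DAF, and 0.037, 0.18 and -0.052 between golden 14 and 18 DAF. Deviations within groups of 3 libraries cannot exclude a pairing. With the number as a replicate block the golden count was 53 and the interaction count 134.

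Over 114 named genes and all settings (1822 pairs), 1292 kept direction and side of the threshold, 514 lost the call, 1 gained it and 15 changed sign, none of these among the 84 called genes. The sign changes, as log2, were Phvul.001G132200 at 0.0723 and 0.0191 without replicate 3 at 10 DAF or at 14 DAF (range over omissions -0.19 to 0.0723), Phvul.002G165600 at -0.0489 and -0.0145 without replicate 2 at 10 DAF or 3 at 14 DAF (-0.0489 to 0.122), and Phvul.002G153100 at -0.0112 and -0.146 without replicate 1 at 10 DAF or 3 at 14 DAF (-0.146 to 0.198). Phvul.002G196400 was at -0.0272 with upper quartile scaling, and at -0.0103, -0.062 and -0.00425 without replicate 2 at 10 DAF, 2 at 14 DAF or 3 at 14 DAF (-0.062 to 0.106). Phvul.007G083500 was at -0.000583 with upper quartile scaling, and at -0.0282 and -0.00961 without replicate 1 at 10 DAF or at 14 DAF (-0.0282 to 0.138). Phvul.001G025700 was at 0.0206 without replicate 1 at 14 DAF (-0.185 to 0.0206) and Phvul.002G321800 at -0.0192 without replicate 2 at 14 DAF (-0.0192 to 0.191). With 3 libraries a group, changes of 2-fold were often missed in simulated data.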
